A study of Schizosaccharomyces pombe with 30 samples.

Results

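mei4 is the fission yeast gene for the meiosis-specific forkhead transcription factor that switches on the middle meiotic genes, and in vegetative cells it sits under a small patch of histone H3 lysine 9 dimethylation (H3K9me2), a heterochromatin island. H3K9me2 over mei4 was followed here in 5 genotypes by chromatin immunoprecipitation and sequencing (ChIP-seq). The 300 bp windows that overlap the gene or lie within 1 kb of it were taken, and 6 of the 1500 windows retained by the authors' enrichment filter met this rule. They tile 1800 bases without a gap. Of the 15 windows of the genome grid that meet the rule, the other 9 did not pass that filter, which kept windows by their abundance over all libraries, so a window could pass through wild-type and clr3-D232N alone. A table of 2520 bins of 5 kb, to which no such filter was applied, gave the surroundings: 2 bins overlap mei4 and 1 lies on either side.

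All strains are Schizosaccharomyces pombe and share the MAT ΔREIII reporter background. In it the Atf1/Pcr1 binding sites s1 and s2, near the REIII element of the mating type locus, are deleted. Also, 3 fluorescent reporters are integrated (SF-GFP at cenH, mKO2 at mat3m and 3xE2C at Locus2, each under the ade6 promoter). The mutants were Δfkh2 (fkh2::natMX, 3 libraries), which lacks a forkhead protein found in Clr6 complexes; Δprw1 (prw1::kanMX, 3 libraries), which lacks a core subunit of Clr6 histone deacetylase complexes; clr6-1 (2 libraries), a hypomorphic allele of the essential class I histone deacetylase gene; and clr3-D232N (3 libraries), a catalytically dead form of Clr3, the class II histone deacetylase of the SHREC complex. Wild-type, with 2 libraries, is the unmutated reporter parent. The clr3-D232N allele is marked with natMX. The wild-type, clr6-1 and clr3-D232N strains are listed as h90 (homothallic), and no mating type is listed for the Δfkh2 and Δprw1 strains. Cells were grown for 8 h at 32 °C in rich YES medium, a condition for vegetative growth. Whether any cells had entered meiosis was not tested. The methods call the libraries of a genotype biological replicates. One wild-type and 1 clr6-1 ChIP library of the series have no column in the count tables and were removed by the authors as outliers and not analysed here. Libraries held 4408669 to 12641248 counts over the 5 kb bins.

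In growing cells, transcripts of mei4 and of other meiotic genes are destroyed by the nuclear exosome. They carry a region called the DSR (determinant of selective removal), built from repeats of the RNA hexamer UNAAAC, with UUAAAC as the classic form, which the YTH-domain protein Mmi1 binds. With its partner Red1, Mmi1 links these transcripts to the H3K9 methyltransferase Clr4, and islands such as mei4 form without the RNA interference pathway that acts at centromeres. Histone deacetylases of the Clr6 and Clr3 families act on heterochromatin more widely.

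mei4 (SPBC32H8.11) lies on the plus strand of chromosome II from 1473068 to 1475285 in the reference ASM294v3, with a single coding exon from 1473194 to 1474747. The deposited counts were made on ASM294v2, and chromosomes I, II and III end at the same base in the count tables and in the reference. The windows run from 1473301 to 1475100. The first 4 lie in coding sequence, the next has 247 coding bases and then 3′ UTR, and the last lies in 3′ UTR. cdk9, the gene for the kinase of the elongation factor P-TEFb, overlaps the 5′ end of mei4 by 115 bases, and the 3′ end of act1, the actin gene, lies 199 bases beyond mei4. The annotation also places 2 antisense non-coding RNAs over mei4, SPNCRNA.5201 and SPNCRNA.5202.

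A pair of windows is shown because their values differ most in kind. The window from 1473601 to 1473900 held the densest set of DSR hexamers. The window from 1474201 to 1474500 has none on the plus strand, the sense strand of mei4. It had the highest count in both wild-type libraries. Both are coding sequence on the plus strand of chromosome II in the RefSeq sequence of ASM294v3, written 5′ to 3′, and capitals mark each TNAAAC, the DNA form of UNAAAC.
mei4 window 2: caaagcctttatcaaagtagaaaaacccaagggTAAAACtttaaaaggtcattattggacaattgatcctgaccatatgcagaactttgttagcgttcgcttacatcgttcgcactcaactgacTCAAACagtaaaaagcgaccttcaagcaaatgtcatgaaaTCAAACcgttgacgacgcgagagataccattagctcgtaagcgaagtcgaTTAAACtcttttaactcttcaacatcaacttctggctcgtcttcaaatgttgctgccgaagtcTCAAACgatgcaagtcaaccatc
mei4 window 4: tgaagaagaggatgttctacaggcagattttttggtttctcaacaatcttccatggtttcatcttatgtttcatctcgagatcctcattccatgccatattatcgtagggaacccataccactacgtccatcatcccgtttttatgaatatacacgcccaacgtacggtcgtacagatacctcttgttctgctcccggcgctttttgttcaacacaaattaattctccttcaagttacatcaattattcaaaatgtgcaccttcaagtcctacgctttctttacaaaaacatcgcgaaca

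TNAAAC was searched on both strands, and TTAAAC, which is 1 form of it, was counted within it. On the plus strand, the sense strand of mei4, the 6 windows held 0, 5, 4, 0, 1 and 0 copies from the 5′ to the 3′ end. The minus strand held 0, 0, 1, 2, 4 and 1. Of 41905 tiles of 300 bases over chromosomes I to III, 44.0% held at least 1 copy on the plus strand, 0.458% at least 4 and 0.0692% at least 5. TTAAAC itself occurred 1, 2 and 1 times on the plus strand in the windows from 1473601, 1473901 and 1474501, and 13.6% of tiles held at least 1 on that strand. Over its full length mei4 carried 11 TNAAAC on its own strand, or 4.96 per kb, and 1.60% of 5113 protein-coding genes had at least this density. These matches describe the sequence and are not evidence of binding.

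H3K9me2 over mei4 was near background in Δprw1 and clr6-1, low but present in Δfkh2, and overlapped wild-type in clr3-D232N. The level is given as the mean raw count of the 6 windows over the count expected in a 300 bp window of the same library from its median 5 kb bin, so that 1 is background. Each fragment is counted in a single window, since window counts summed exactly to bin counts in the 3 stretches of 15 kb where every window was kept. The 3 Δfkh2 libraries stood at 2.58, 4.29 and 1.76 times background. Δprw1 reached 1.17, 1.27 and 1.19 times background in its 3 libraries and clr6-1 reached 1.23 and 1.21 in its 2. The clr3-D232N libraries reached 11.2, 15.9 and 19.2 times background, against 19.5 and 11.8 for wild-type. Every Δfkh2, Δprw1 and clr6-1 library lay below both wild-type libraries, whereas the clr3-D232N values overlapped them.

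**Figure D1:**
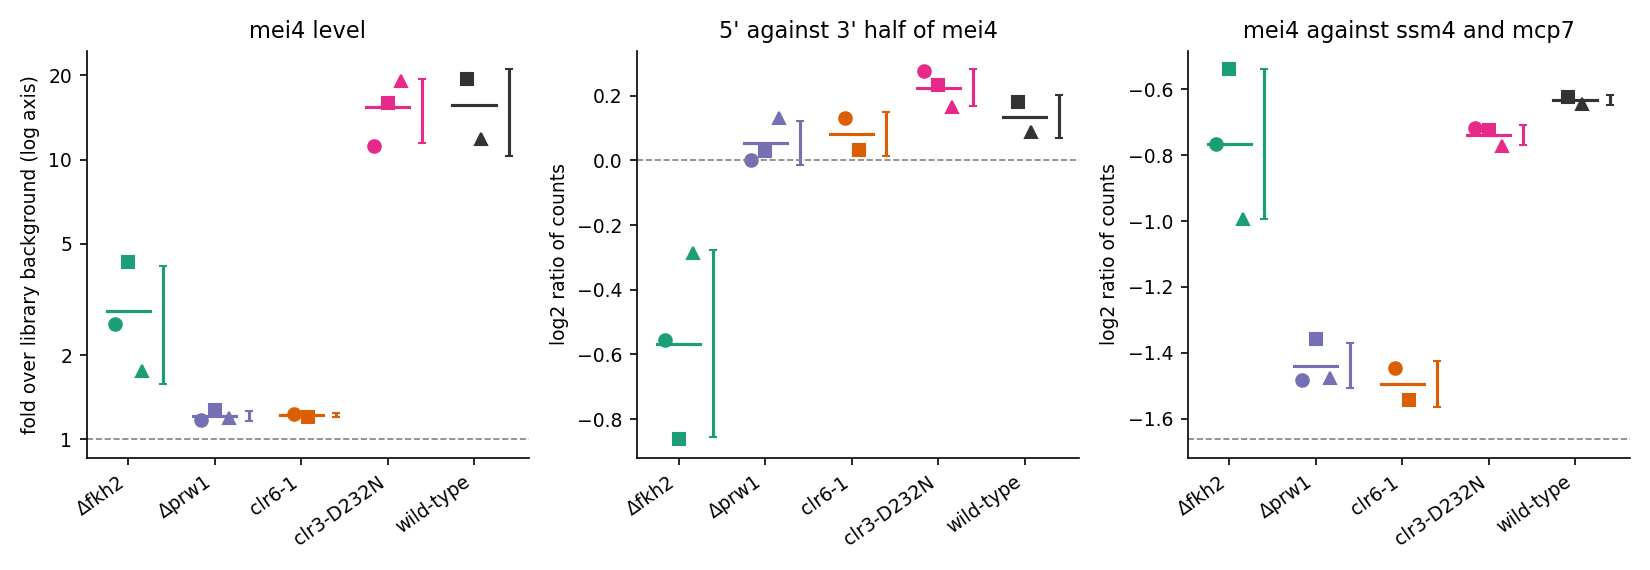
Each point is a library (circle, replicate A; square, B; triangle, C), the horizontal line is the mean of the genotype and the bar beside it ± SD. The left panel gives the mei4 level as fold over library background on a log axis, the middle panel the log2 ratio of counts in the 5′ windows to the 3′ windows, and the right panel the log2 ratio of mei4 counts to ssm4 and mcp7 counts. The dashed lines mark background, an even profile and the ratio of -1.66 that equal counts in every window would give. Δfkh2 is the only genotype whose libraries all lie below 0 in the middle panel.

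The mean levels were 2.88 ± 1.29 in Δfkh2 (SD, n = 3), 1.21 ± 0.0515 in Δprw1 (n = 3), 1.22 ± 0.0197 in clr6-1 (n = 2), 15.4 ± 4.01 in clr3-D232N (n = 3) and 15.6 ± 5.38 in wild-type (n = 2). In ascending order this gives Δprw1, clr6-1, Δfkh2, clr3-D232N and wild-type. The neighbours Δprw1 and clr6-1 did not differ beyond their spread, nor did clr3-D232N and wild-type. Δfkh2 lay above both of its lower neighbours without overlap and below clr3-D232N without overlap.

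On normalized counts, summed over the 6 windows and taken as log2, Δfkh2 lay 2.49 below wild-type (difference -2.49), Δprw1 differed by -3.64 and clr6-1 by -3.64, and clr3-D232N by -0.0031, a value that became 1.09 when libraries were scaled by total count and 1.81 with TMM on the windows. In exact permutation tests over libraries, 2-sided, p was 0.10 for Δfkh2 and 0.10 for Δprw1, which is the smallest p that 3 against 2 libraries allow. For clr6-1 p was 0.333, again the smallest for 2 against 2, and for clr3-D232N p was 1. No comparison of this size can reach 0.05. Wild-type libraries themselves differed by the spread shown, with normalized sums of 12277 and 7468, so a difference of clr3-D232N from wild-type of that size could not have been seen.

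Fitted window by window with all 1500 windows, the Clr6-related mutants were lower in all 6 mei4 windows that passed the filter. The filter could be passed through wild-type and clr3-D232N alone, so lower values in the other genotypes were favoured in advance. In Δfkh2, edgeR's quasi-likelihood test with Benjamini-Hochberg adjustment called all 6 windows lower than in wild-type (adjusted p under 0.005 with a change of more than 1 on the log2 scale), where 36.0% of all windows were called lower. In Δprw1 all 6 were called lower, against 48.3% of all windows, and in clr6-1 all 6, against 36.4%. In clr3-D232N 0 of 6 were called in either direction, by edgeR's quasi-likelihood test and by DESeq2, and 0 of 6 had an unadjusted p below 0.05, while 64.9% of all windows were called lower and 0.867% higher. This call rests on scaling by the 5 kb bins: with libraries scaled by their total count 3 of the 6 were called higher in clr3-D232N, and with TMM on the windows all 6. Median log2 fold changes at mei4 stood beside those of all 1500 windows as follows. Δfkh2 had -2.44 at mei4 and -1.38 over all, and Δprw1 had -3.73 and -1.53. For clr6-1 the pair was -3.69 and 0.02, and for clr3-D232N it was -0.01 and -2.46.

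**Figure D2:**
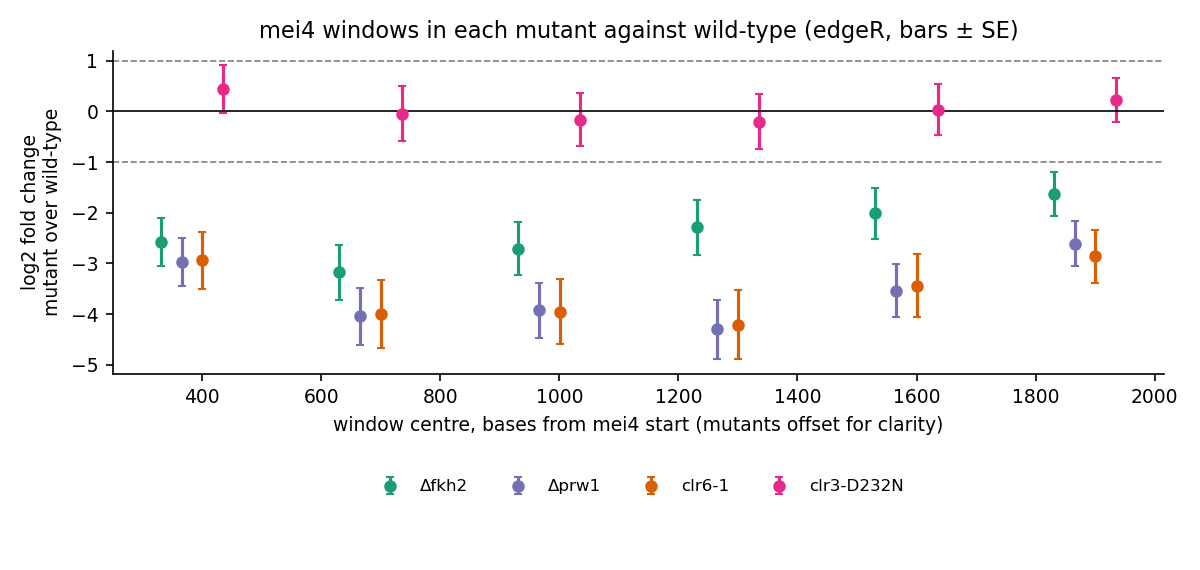
Log2 fold change of each mei4 window in each mutant over wild-type from the edgeR fit, against the distance of the window centre from the mei4 start in bases, with bars of ± SE. The dashed lines mark the fold threshold. The clr3-D232N points lie around 0, from -0.20 to 0.43, and those of Δfkh2, Δprw1 and clr6-1 all lie below -1.

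The Δfkh2 call depended on single libraries and on the fit. Without wild-type replicate B, 3 of the 6 windows were called, and 4 without Δfkh2 replicate C. With only Δfkh2 and wild-type in the fit, which then estimated the spread from 5 libraries, 1 window was called, and with TMM on the windows 3. In Δprw1 and clr6-1 all 6 windows were called whichever library was left out, and TMM on the windows left 5 in Δprw1.

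The windows differed in the size of their fold changes. In the window from 1474201 to 1474500, the highest of wild-type, normalized counts were 419, 800 and 256 in Δfkh2, against 2937 and 1862 in wild-type. The Δprw1 libraries held 123, 133 and 110 there, and the clr6-1 libraries 120 and 140. In clr3-D232N the same window held 1454, 2162 and 2634 normalized counts. Its log2 fold change from wild-type was -2.29 ± 0.54 (SE) in Δfkh2 (edgeR adjusted p = 0.000107), -4.30 ± 0.58 in Δprw1 (edgeR adjusted p = 5.78e-13), -4.21 ± 0.68 in clr6-1 (edgeR adjusted p = 1.34e-08) and -0.20 ± 0.54 in clr3-D232N (edgeR adjusted p = 0.738). With only Δfkh2 and wild-type in the fit, the Δfkh2 edgeR adjusted p in this window was 0.0263. This was the window that fell furthest in Δprw1 and clr6-1. All 6 windows stood near background in these mutants. Their means were 1.15 to 1.29 times background in Δprw1 and 0.97 to 1.35 in clr6-1. The fold changes there followed the order of the windows in wild-type, so they do not show a loss particular to a position.

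In Δfkh2 the window that fell furthest was another, from 1473601 to 1473900, the one with 5 TNAAAC. Its normalized counts were 229, 337 and 176 in Δfkh2, 117, 145 and 146 in Δprw1, while clr6-1 had 147 and 133. The clr3-D232N libraries held 1680, 2250 and 2596, against 2814 and 1671 in wild-type. The log2 fold change in Δfkh2 was -3.18 ± 0.55 (SE, edgeR adjusted p = 1.29e-07), and in Δprw1 and clr6-1 it was -4.04 and -4.00. With only Δfkh2 and wild-type in the fit, the Δfkh2 edgeR adjusted p was 0.00503 and the window was not called. In Δfkh2 this window retained less over background than the window from 1474201 in all 3 libraries, with 2.16, 3.19 and 1.66 against 3.95, 7.57 and 2.41 times background. In clr3-D232N and wild-type these windows were close to each other, with group means of 20.6 and 19.7 times background in clr3-D232N and 21.3 and 22.8 in wild-type. The first window, from 1473301, has no TNAAAC. It stood closer to background in Δfkh2 than the window from 1473601, with means of 1.56 and 2.34 times background. In wild-type these were 9.46 and 21.3, so the first window had less room to fall. A link between the hexamers and the loss was not tested.

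The island's edges were lower in every genotype that carried it. The window in the 3′ UTR, from 1474801 to 1475100, had normalized counts of 218, 345 and 162 in Δfkh2, 122, 120 and 124 in Δprw1, while clr6-1 had 106 and 99.0. clr3-D232N gave 619, 884 and 1117 there, against 916 and 576 in wild-type. This window was the lowest of the 6 in both wild-type libraries. Its log2 fold changes were the smallest of the 6 in the Clr6-related mutants, with -1.63 for Δfkh2, -2.61 for Δprw1 and -2.86 for clr6-1. For clr3-D232N it was 0.23. Over background it stood at 1.00 and 0.940 in the clr6-1 libraries, so there it was at background. The first window, from 1473301, was at 152, 192 and 154 normalized counts in Δfkh2 and 960, 1421 and 1643 in clr3-D232N, against 1237 and 753 in wild-type, and its log2 fold change in clr3-D232N of 0.43 ± 0.47 (SE) had the largest size among the clr3-D232N windows (edgeR adjusted p = 0.406).

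**Figure D3:**
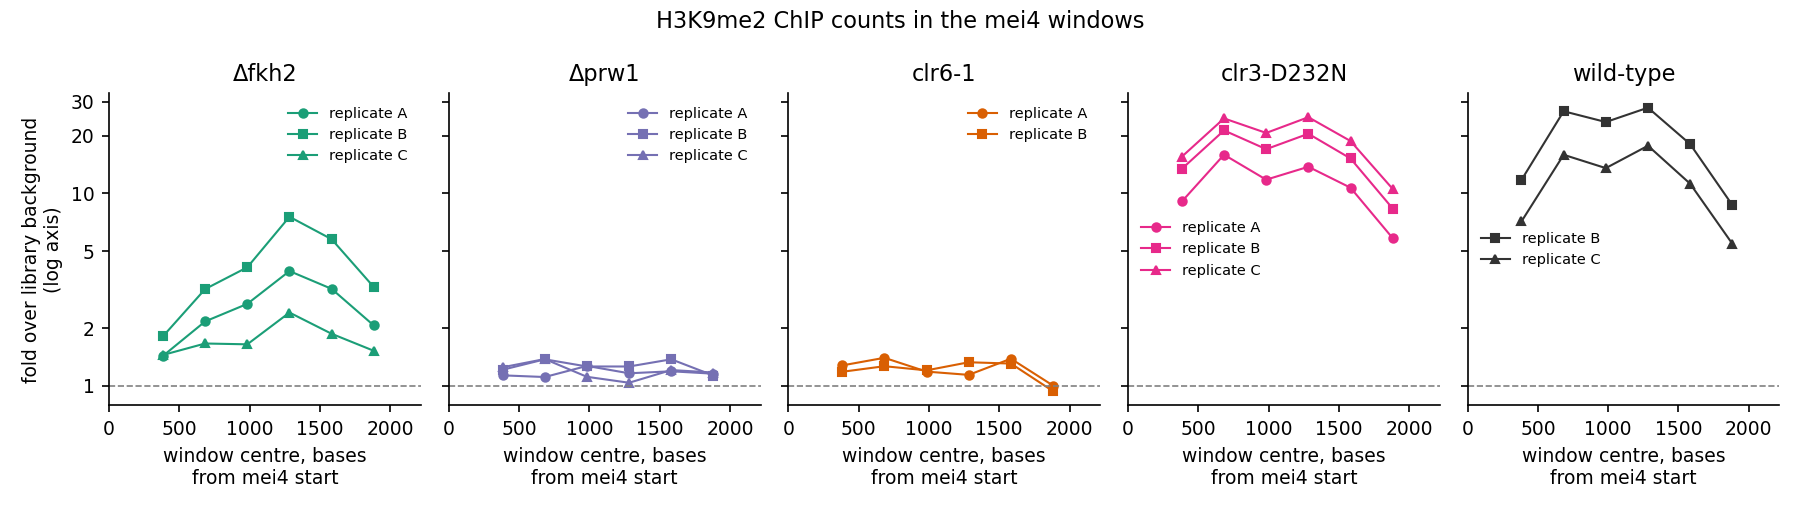
H3K9me2 counts of each mei4 window as fold over library background, on a log axis, against the distance of the window centre from the mei4 start in bases, with a panel for each genotype and a line for each library. The dashed line is background. clr3-D232N and wild-type were high in the windows from 1473601 to 1474500, the Δfkh2 lines peak at the window from 1474201, and Δprw1 and clr6-1 run along background.

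In Δfkh2 more of the counts lay in the 3′ windows than in the 5′ windows of mei4. The first 3 windows were set against the last 3 within each library, a ratio that no scaling of libraries can change. The ratio was 0.681, 0.550 and 0.821 in Δfkh2, 1.00, 1.02 and 1.09 in Δprw1, while clr6-1 had 1.09 and 1.02. For clr3-D232N the values were 1.21, 1.17 and 1.12, against 1.13 and 1.06 in wild-type. All 3 Δfkh2 libraries lay below every other library. The mean log2 ratio was -0.57 ± 0.29 in Δfkh2 (SD, n = 3) and 0.13 ± 0.07 in wild-type (n = 2), a difference of -0.70 (exact permutation test, 2-sided, p = 0.20, where 0.10 is the smallest possible). Against clr3-D232N, at 0.22 ± 0.06 (n = 3), the difference of clr3-D232N from Δfkh2 was 0.79 (exact p = 0.10, the smallest possible).

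The ratio in Δfkh2 lay further from wild-type when background was taken off. With the expected background subtracted from each window, a step chosen after seeing the data, the log2 ratio was -0.93, -1.15 and -0.67 in Δfkh2 and 0.31, 0.25 and 0.17 in clr3-D232N, against 0.19 and 0.10 in wild-type. In Δprw1 and clr6-1 too little was left above background for this subtracted ratio to be read, with values from 0.02 to 0.82. The plain ratio in those mutants differed from wild-type by -0.08 and -0.05, within the spread of the libraries (exact p = 0.30 and 0.667, of smallest possible values 0.10 and 0.333).

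The mutants were also compared with each other at the 6 windows. Because the filter could be passed through wild-type and clr3-D232N alone, higher values in clr3-D232N than in the other mutants were favoured in advance. clr3-D232N was called higher than Δfkh2 in all 6, where 4.13% of all windows were called higher, higher than Δprw1 in all 6, against 7.0%, and higher than clr6-1 in all 6, against 5.67%. The log2 fold changes were 1.86 to 3.14 over Δfkh2, 2.84 to 4.10 over Δprw1 and 3.09 to 4.00 over clr6-1, by edgeR's quasi-likelihood test with a highest adjusted p of 0.00019. Each clr3-D232N library lay above each library of the other mutants in summed level.

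Within the Clr6-related mutants the differences were smaller. Δprw1 was called lower than Δfkh2 in 1 window, where 20.3% of all windows were called lower. That was the window from 1474201, with a log2 fold change of -2.01 ± 0.51 (SE, edgeR adjusted p = 0.000515). The call was lost, leaving 0 windows, without Δprw1 replicate A or without Δprw1 replicate C, and 4 windows were called with libraries scaled by total count. In summed level Δprw1 lay below Δfkh2 in every library, by a log2 difference of -1.16 (exact permutation test, 2-sided, p = 0.10, the smallest possible). Δfkh2 against clr6-1 gave 0 called windows, where 0.2% of all windows were called higher and 0.2% lower, although 4 had an unadjusted edgeR p below 0.05 and their log2 fold changes were all above 0, with a median of 1.24. All 6 were called higher in Δfkh2 than in clr6-1 when libraries were scaled by total count. Δprw1 against clr6-1 also gave 0, with 0 at an unadjusted edgeR p below 0.05 and log2 fold changes from -0.10 to 0.25, where 10.7% of all windows were called lower and 0.0% higher, but 5 were called higher in Δprw1 with TMM on the windows. That Δprw1 and clr6-1 were not told apart at mei4 has a floor beside it, since both stood within 1.27 times background.

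The 5 kb bins gave the surroundings of the island without the enrichment filter. The bin from 1470001 to 1475000 holds most of mei4 and all of cdk9. It had normalized counts of 2835, 3911 and 2345 in Δfkh2, 1874, 1952 and 1881 in Δprw1, while clr6-1 had 1892 and 1973. The clr3-D232N libraries gave 8478, 11642 and 13728, against 14185 and 9087 for wild-type. Among 2520 bins ordered by count from the highest, its rank was 73, 86 and 119 in the Δfkh2 libraries, 464, 425 and 374 in Δprw1, while clr6-1 had 490 and 284. The clr3-D232N libraries ranked it 43, 42 and 42, against 72 and 74 for wild-type. A rank also moves when other bins of a library change, so it does not measure the level of the main mei4 bin. Its log2 fold change was -1.94 ± 0.32 (SE) in Δfkh2, and Δprw1 and clr6-1 gave -2.61 ± 0.32 and -2.59 ± 0.37. For clr3-D232N it was -0.04 ± 0.32. edgeR's quasi-likelihood test called it lower in Δfkh2 (adjusted p = 0.00033), where 2.34% of bins were called lower, in Δprw1 (adjusted p = 9.65e-06), where 4.17% were, and in clr6-1 (adjusted p = 8.05e-05), where 3.65% were. In clr3-D232N the edgeR adjusted p was 0.955, where 3.89% of bins were called lower and 0.159% higher. The call was lost in Δfkh2 without wild-type replicate B and in clr6-1 without clr6-1 replicate A, which left 0 of the 4 bins called.

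The next bin, from 1475001 to 1480000, holds the 3′ end of mei4, act1 and part of mok12, which encodes an α-glucan synthase homologue. It stood at 1.07, 1.19 and 1.01 times the median bin in Δfkh2, 0.982, 1.02 and 0.983 in Δprw1, while clr6-1 had 0.991 and 0.963. clr3-D232N gave 1.20, 1.35 and 1.43 there, against 1.85 and 1.47 in wild-type. No mutant library reached either wild-type library. The log2 fold changes were -0.59, -0.73 and -0.76 in Δfkh2, Δprw1 and clr6-1, with edgeR adjusted p of 0.000242, 1.32e-05 and 6.92e-05, and -0.31 in clr3-D232N, with edgeR adjusted p of 0.0237. None passed the fold threshold. Directions in Δfkh2 and clr3-D232N depended on scaling: with libraries scaled by total count the bin moved to 0.23 in Δfkh2 and 0.78 in clr3-D232N, and the main mei4 bin, at 1.08, was then called higher in clr3-D232N (edgeR adjusted p = 0.00124).

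**Figure D4:**
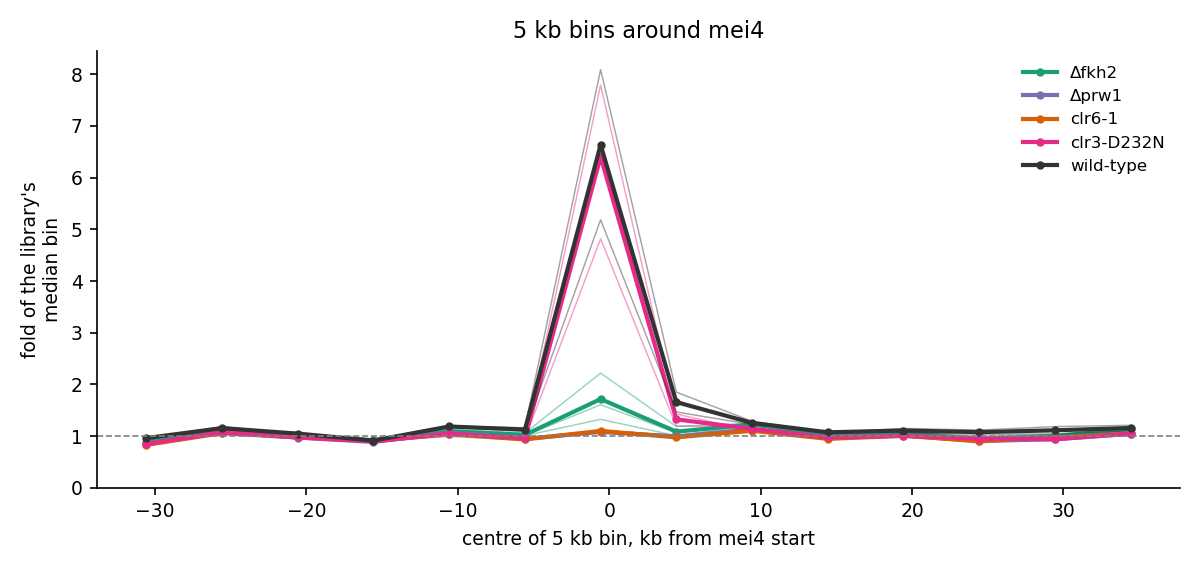
Counts of the 5 kb bins around mei4 as fold of the library's median bin, against the distance of the bin centre from the mei4 start in kb. Thick lines are genotype means and thin lines are libraries. In clr3-D232N and wild-type the main mei4 bin is the highest of the bins plotted, and they lie close to each other there and apart in the bin after it. In Δprw1 the bin from 1480001, at 1.11 to 1.17 times the median bin, is above the main mei4 bin, at 1.07 to 1.11.

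The bins on either side changed little. The bin from 1465001 to 1470000, with omh5, which encodes a mannosyltransferase homologue, and most of wdr8, moved by -0.12 on the log2 scale for Δfkh2 (edgeR adjusted p = 0.0306) and -0.23 for Δprw1 (edgeR adjusted p = 0.000128). clr6-1 gave -0.26 (edgeR adjusted p = 0.000442) and clr3-D232N -0.21 (edgeR adjusted p = 0.000315), and the size stayed under the fold threshold in each. At an adjusted p below 0.005 without a fold threshold, 7.34%, 9.25%, 7.82% and 8.81% of all bins were lower in these mutants. The bin from 1480001 to 1485000, within mok12, had log2 fold changes between -0.18 and -0.02 and an edgeR adjusted p from 0.0473 to 0.823. With total count both outer bins turned to values above 0 in Δfkh2, Δprw1 and clr3-D232N, from 0.46 to 0.94.

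Set against these neighbours within each library, the main mei4 bin stood at 1.44, 1.92 and 1.20 times their mean in Δfkh2, 1.03, 1.06 and 1.04 in Δprw1, while clr6-1 had 1.05 and 1.11. For clr3-D232N the values were 4.55, 6.20 and 7.56, against 6.60 and 4.48 in wild-type. With local flanks as the yardstick Δfkh2, Δprw1 and clr6-1 again lay below both wild-type libraries, and the clr3-D232N values overlapped wild-type, with a mean of 6.10 against 5.54, the reverse order of the mean levels over background. The log2 ratio of both mei4 bins to the neighbours was 0.30 ± 0.25 in Δfkh2, -0.0007 ± 0.025 in Δprw1, while clr6-1 had 0.03 ± 0.02. The clr3-D232N libraries gave 1.86 ± 0.33, against 1.77 ± 0.35 for wild-type (SD, n = 2 for clr6-1 and wild-type and 3 for the others). Exact permutation tests against wild-type gave p = 0.10 for Δfkh2, 0.10 for Δprw1, 0.333 for clr6-1 and 0.80 for clr3-D232N, 2-sided, and the first 3 are the smallest possible.

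Outside the windows, in the rest of the pair of mei4 bins, clr3-D232N libraries were lower than wild-type libraries. Subtracting the 6 windows from the pair of mei4 bins left 8200 bases, the gene ends and the sequence beyond them. These bins run from 1470001 to 1480000 and hold cdk9 and act1, so the remainder cannot place a difference next to the windows. This remainder, examined after seeing the data, stood at 1.06, 1.14 and 1.04 times background in Δfkh2, 0.992, 1.02 and 0.989 in Δprw1, while clr6-1 had 0.991 and 1.01. In clr3-D232N it stood at 1.21, 1.35 and 1.42, against 1.79 and 1.46 in wild-type. All clr3-D232N libraries lay below both wild-type libraries and above all others. The log2 difference of clr3-D232N from wild-type was -0.29 (exact permutation test, 2-sided, p = 0.10, the smallest possible). With the next bins as background instead of the median bin the difference was -0.11 and the groups overlapped (exact p = 0.50).

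mei4 was set against ssm4, a dynactin subunit gene of meiotic nuclear movement, and mcp7, a meiotic recombination gene, the other islands examined alongside it. The ratio of mei4 counts to the summed counts of the 19 windows of ssm4 and mcp7 was 0.588, 0.688 and 0.502 in Δfkh2, 0.358, 0.390 and 0.360 in Δprw1, while clr6-1 had 0.367 and 0.343. clr3-D232N gave 0.608, 0.606 and 0.585 there, against 0.649 and 0.640 in wild-type. On the log2 scale Δprw1 differed from wild-type by -0.81 (exact p = 0.10, the smallest possible), clr6-1 by -0.86 (exact p = 0.333, the smallest possible) and Δfkh2 by -0.13 (exact p = 0.60). With equal counts in every window this log2 ratio would be -1.66, and Δprw1 and clr6-1, at -1.44 ± 0.07 (SD, n = 3) and -1.49 ± 0.07 (n = 2), lay near it. In Δfkh2, at -0.77 ± 0.23 (n = 3), the libraries overlapped those of wild-type.

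In clr3-D232N this ratio was lower than in both wild-type libraries, by a log2 difference of -0.10 (exact p = 0.10, the smallest possible). Against mcp7 alone the difference was -0.26 (exact p = 0.10, the smallest possible), and against ssm4 alone it was 0.02 with overlapping libraries (exact p = 0.70). The per-window fold over background in clr3-D232N was 15.4 ± 4.01 at mei4, 8.19 ± 2.38 at ssm4 and 8.11 ± 2.13 at mcp7 (SD, n = 3), and in wild-type 15.6 ± 5.38, 8.36 ± 2.82 and 6.87 ± 2.26 (n = 2). The mei4 windows all lie within the gene, while those of ssm4 and mcp7 reach beyond it, to but1 and ubp8. Means of the 3 loci are therefore not over like windows.

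As a share of all counts in the 1500 windows, mei4 took 0.0870%, 0.0619% and 0.0448% in Δfkh2, 0.0354%, 0.0105% and 0.0300% in Δprw1, while clr6-1 had 0.00850% and 0.00761%. For clr3-D232N the values were 0.421%, 0.644% and 0.703%, against 0.114% and 0.127% in wild-type. The share was higher in each clr3-D232N library than in either wild-type library, by 0.469 percentage points on average (exact permutation test, 2-sided, p = 0.10, the smallest possible). Over the same libraries the windows as a whole took 28.4%, 27.1% and 29.0% of the counts in 5 kb bins in clr3-D232N, against 70.2% and 57.3% in wild-type.

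Other Mmi1-linked or meiotic genes chosen with mei4 followed several courses. No window of rec8, the meiotic cohesin gene, spo5, a meiotic RNA-binding protein gene, or crs1, a meiotic cyclin gene, passed the filter, and their 5 kb bins stood at 0.915 to 1.10 times the median bin in wild-type. All of these carry DSR hexamers at least as densely as mei4, at 7.78, 6.65 and 7.54 TNAAAC per kb. The gene mcp5 (annotated num1), which anchors dynein to the cortex in meiotic prophase, had 8 windows, at 5.75 ± 1.23 times background in clr3-D232N (SD, n = 3), against 2.50 ± 0.554 in wild-type (n = 2). In clr3-D232N 5 of its 8 windows were called higher by edgeR, where 0.867% of all windows were, beside 0 of 6 at mei4. Windows of mcp5 could pass the filter through clr3-D232N alone, so such calls were favoured in advance. At ssm4 1 of 10 windows was called higher in clr3-D232N, and at mcp7 3 of 9. In Δfkh2, Δprw1 and clr6-1, 0, 5 and 1 of the 8 mcp5 windows were called lower, beside 36.0%, 48.3% and 36.4% of all windows. The Δprw1 count was not far from its share of 48.3%. At ssm4 7, 7 and 8 of 10 windows were called lower in the same mutants, and at mcp7 7, 8 and 7 of 9, beside the same shares.

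The meiotically upregulated genes mug8 and mug9 had 1 and 3 windows, of which 1 and 1 were called higher in clr3-D232N, beside the same 0.867% of all windows. The windows of mug8 and mug9 could also pass the filter through clr3-D232N alone. In each of Δfkh2, Δprw1 and clr6-1, 0 windows of mug8 and 1 of mug9 were called lower, beside 36.0%, 48.3% and 36.4% of all windows. SPAC8C9.04, which has no standard name, had 3 windows, all called lower in Δfkh2, Δprw1 and clr6-1, against those same shares of all windows, and none called in clr3-D232N. It carried 1.17 TNAAAC per kb, a density that 68.9% of protein-coding genes reach.

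The regions whose H3K9me2 most resembled that of mei4 were sought among 64 regions of 2 or more windows, by Pearson's r of the mean log2 normalized count over the 13 libraries, which share their scaling and depth. The closest was the region of ssm4 and the adjoining but1 on chromosome I from 4533601 to 4536600 (r = 0.991), followed by mcp7 and ubp8 on chromosome I from 578401 to 581100 (r = 0.988) and SPAC8C9.04 on chromosome I from 3647401 to 3648300 (r = 0.983). After them came a region at tum1 on chromosome III from 1177801 to 1178400 (r = 0.970) and another at aha1, a gene for an Hsp90 co-chaperone, on chromosome II from 2149801 to 2150400 (r = 0.961). The tum1 region averaged 173 normalized counts per window in Δfkh2, 135 in Δprw1 and 138 in clr6-1. It averaged 317 in clr3-D232N, against 387 in wild-type. These correlations are descriptions over 5 genotypes, most of whose spread lies between the genotypes.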

How the data were processed

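H3K9me2 ChIP-seq fragments (antibody Abcam ab1220) were counted by the authors into 300 bp windows and 5 kb bins, and the deposited values are raw counts. The methods and processing notes name Trimmomatic 0.39, Bowtie2 2.4.2, Picard 2.25.2, SAMtools 1.12 and build ASM294v2, with csaw for counting and a filter on windows by abundance over background. Of 30 samples, 15 are inputs, which have no column in the count tables, so values here are not divided by input and copy number was not tested. Size factors were DESeq2 1.42.0 medians of ratios on the 5 kb bins, after the authors' scheme. One edgeR 4.0.16 quasi-likelihood fit across all windows (and 1 across all bins) took the 13 libraries with genotype as the only term, in R 4.3.3. Calls needed an adjusted p (Benjamini-Hochberg) under 0.005 with a log2 change larger than 1 in size, as the authors set. The SE of a fold change was its size over the root of F. Single values per library were compared by exact permutation tests, 2-sided and not adjusted across comparisons. The fit was tested on simulated data. The gene, its windows and the gene lists were chosen with earlier results of these data known, and named windows and regions follow rank in size or r. Gene positions are from RefSeq ASM294v3. Counts of 354 to 22052 per library lay behind the mei4 level. Alternatives covered scaling, filter, test, fit and left-out libraries, with 4 added after seeing the data.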

Additional observations from a re-analysis of the deposited data

How the results depend on the processing

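Direction at mei4 held for Δfkh2, Δprw1 and clr6-1 against wild-type in level, local ratio and remainder under every alternative run, with leave-one-out level differences of -2.84 to -2.13, -4.00 to -3.28 and -3.99 to -3.28. The loss in Δfkh2 was called in 6 windows, but in 3 with TMM on windows and 1 with only Δfkh2 and wild-type in the fit. Leaving out 1 library gave 3 to 6 windows there.

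The comparison of clr3-D232N with wild-type turned on scaling. Against the median-of-ratios level difference of -0.0031, TMM on 5 kb bins gave 0.0044, total count 1.09, TMM on windows 1.81 and the mean of log2 windows 0.0538, and leave-one-out -0.36 to 0.36. Windows called higher numbered 3 with total count and 6 with TMM on windows, and 1 bin was called with total count. TMM on windows moves the median of all 1500 windows in clr3-D232N to -0.57, against -2.46, and total count moves it to -1.32. The windows from 1473601, 1473901 and 1474201 turned to 1.09, 0.98 and 0.92 with total count and to 1.85, 1.74 and 1.68 with TMM on windows, and the first to 0.0578 with the replicate block. In leave-one-out, the clr3-D232N windows from 1473601, 1473901, 1474201, 1474501 and 1474801 ranged from -0.37 to 0.38, -0.51 to 0.29, -0.50 to 0.16, -0.27 to 0.41 and -0.0684 to 0.60. With total count the bins from 1465001, 1470001, 1475001 and 1480001 turned to 0.85, 1.08, 0.78 and 0.94 in clr3-D232N, those from 1465001, 1475001 and 1480001 to 0.68, 0.23 and 0.78 in Δfkh2, and those from 1465001 and 1480001 to 0.46 and 0.53 in Δprw1. The clr3-D232N bin from 1470001 was 0.0376 with the replicate block. In leave-one-out that bin ranged from -0.33 to 0.31, and the Δfkh2 bin from 1480001 from -0.0618 to 0.0108. The mei4 to ssm4 ratio alone was 0.0191. Ratios to the neighbours ranged from -0.17 to 0.33 when a library was left out. With background subtracted, the ratio of 5′ to 3′ windows turned to 0.18 in Δprw1 and 0.23 in clr6-1. The cause of these changes was not tested beyond the scaling itself.

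Between mutants, Δprw1 was called below Δfkh2 in 1 window, but in 3 at an adjusted p below 0.05, 2 with DESeq2, 2 with the replicate block, 4 with total count, 2 without the 25% of windows with the lowest counts and 0 to 2 in leave-one-out. Δfkh2 was above clr6-1 in 0 windows, but in 3 at an adjusted p below 0.05, 1 with the replicate block, 6 with total count and 6 with TMM on windows. Δprw1 was above clr6-1 in 5 windows with TMM on windows, and its level difference of -0.0060 became 0.79 with total count and 1.39 with TMM on windows, with a leave-one-out range of -0.0404 to 0.0186. Bins called lower ranged from 0 to 1 in Δfkh2 and clr6-1 when a library was left out.

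The replicate letters shared by the genotypes were not shown to pair libraries, since same-letter correlations of deviations ran from -0.72 to 0.66 and 6 of 13 libraries correlated best with their own letter. With the replicate block, all 6 windows were called in each Clr6-related mutant against wild-type and 0 in clr3-D232N. DESeq2 used a mean dispersion on the bins because its trend could not be fitted there.

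The library with the fewest counts held 354 over the 6 windows, and wild-type and clr6-1 had 2 libraries each. How far depth or the number of libraries limits the comparisons was not tested.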
